A study of Mus with 18 samples.

Results

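The response of mouse lens epithelial cells lacking FosB was compared with that of wild type cells 6 h after lens fiber cell removal, using the 3 FosBcKO and the 3 WT libraries collected at that time out of the 18 RNA-seq libraries of the study. The members were every gene ID of the deposited count tables, 55416 in all, of which 22479 had no count in these 6 libraries and 16155 passed the filter on low counts and were tested. WT mice had the strain label C57BL/6 and the genotype label wildtype, and the sources used here do not say whether they were littermates of the mutants or carried the floxed allele or cre. FosBcKO mice (genotype label FosB Lens cKO, strain label C57BL/6) carried a floxed Fosb allele that was deleted in the lens by MLR10 cre, a transgene driven by a modified alpha-A crystallin promoter. The cre line was received on another inbred background and backcrossed to C57BL/6. The Fosb deletion, the presence of cre and any sequence linked to either allele cannot be told apart here.

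All mice were 3 to 5 months old, and both sexes were used. The fiber cell mass was removed from one eye, the same operation was done on the fellow eye 6 h later, and both capsular bags with their attached lens cells were then taken, which gave the 6 h and the 0 h samples. Each library pooled 5 capsules, so its value is an average over animals, and a 0 h library is separate from a 6 h library but may come from the same mice. Systemic Egr1 null mice (Egr1KO) were sampled in the same way, and their libraries are used here only to place the levels. They came from a stock whose name gives a mixed strain background, so their background may differ from that of WT. Each group held 3 libraries that the submitters call biological replicates, and the p-values measure the spread between such pools.

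FosB belongs to the Fos family, whose members pair with Jun proteins and bind AP-1 sites in promoters and enhancers. Fos and Jun genes are immediate early genes: they are transcribed within minutes of a stimulus, without new protein synthesis, and the factors they encode then act on later genes. Lens epithelial cells left on the capsule after cataract surgery respond to the removal of the fiber cells with inflammatory and wound healing gene expression, and the cells that remain can go on to opacify the capsule.

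The deposited tables identify genes by Ensembl ID alone, and the RefSeq table used here matched 0 of the 55416 IDs. The results are therefore given as groups of genes, with 4 IDs described in full. The level of Fosb itself, lens markers, markers of other cell types and pathway lists were not analysed here, so the FosBcKO label was not checked against the targeted gene. In bulk samples, fewer cells of a type and less RNA per cell cannot be told apart. Likewise, a differing share of other tissue left on the dissected capsules cannot be told apart from a change within lens epithelial cells.

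The 6 libraries held between 9920318 and 11647796 counts assigned to genes, and no pair of libraries was identical. Serial numbers given to the libraries at deposit run on from WT replicate 1 to the FosBcKO libraries, while WT replicates 2 and 3 are numbered after the Egr1KO libraries. No source used here says what the numbers stand for, and any part of preparation order in the genotype difference was not tested. WT libraries spanned 9920318 to 10609543 counts and FosBcKO libraries 11572246 to 11647796, so depth was slightly higher in every FosBcKO library. Between 23.39% and 30.47% of read pairs were counted by HTSeq as overlapping no annotated feature. FosBcKO replicate 1 was the library with the highest such share, 30.47%, and it also had the most genes with a count, 25999 against 22022 to 23699 in the other 5. Counts and fold changes that move most without this library are given below with and without it. The first principal component of log2 CPM (counts per 1000000 gene counts) carried 42.1% of the variance and separated the genotypes: WT libraries lay between -64.51 and -33.3 and FosBcKO libraries between 24.91 and 69.5. The second component carried 24.2% and spread the libraries within both genotypes.

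At 6 h, 874 of the 16155 tested genes, 5.41%, were differentially expressed genes (DEGs), called by the exact test of edgeR where the Benjamini-Hochberg adjusted p (FDR) did not exceed 0.05 and the levels differed over 2-fold. Of these, 724 genes (4.48% of those tested) rose and 150 (0.929%) fell in FosBcKO relative to WT, so that 82.8% of the DEGs were higher in the mutant cells. A further 137 genes passed the FDR but differed by no more than 2-fold. Genes that differed by more than 2-fold whatever their FDR numbered 1378 higher and 822 lower. That wider set includes the 724 and 150 DEGs, so it does not show an excess of higher genes outside them. The median log2 fold change over all tested genes was 0, with quartiles of -0.31 and 0.35.

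**Figure D1:**
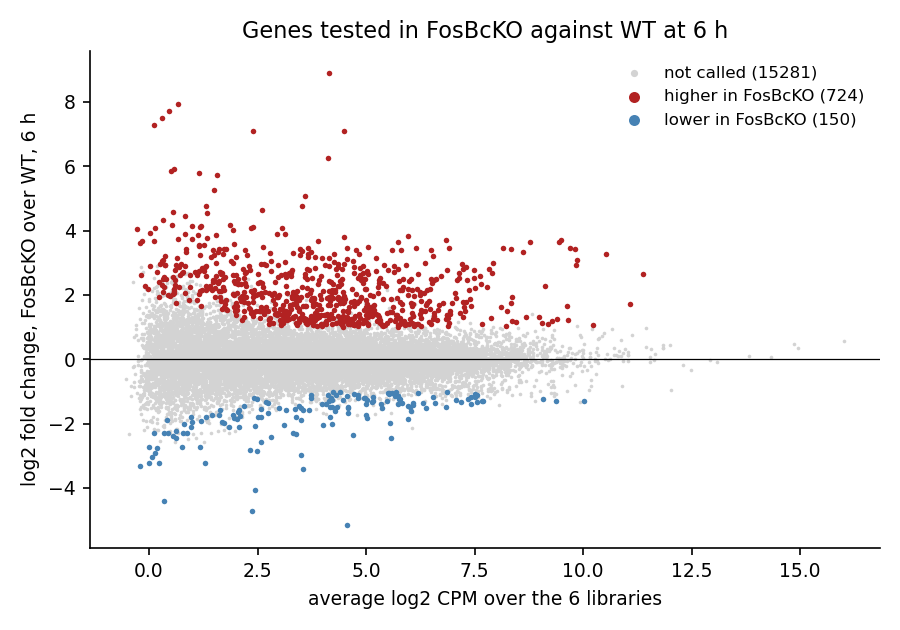
Log2 fold change of FosBcKO over WT at 6 h (vertical axis) against average log2 CPM over the 6 libraries (horizontal axis) for each of the 16155 tested genes. The 724 genes called higher (red) reach 8.89 and the 150 called lower (blue) reach -5.16, with 15281 genes not called in grey.

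Upward changes reached further than downward ones. The median log2 fold change of the 724 higher genes was 1.96 (quartiles 1.42 and 2.67, median standard error 0.37), and that of the 150 lower genes was -1.53 (quartiles -2.05 and -1.28, median standard error 0.41). These medians describe genes that were selected for their change and are not a test. Among the higher genes, 373 differed by 2 to 4-fold, 237 by 4 to 8-fold, 82 by 8 to 16-fold and 32 by more than 16-fold. The corresponding numbers of lower genes were 110, 30, 6 and 4.

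DEGs were found at every level of expression. Of the 506 tested genes with a mean under 1 CPM, 24 (4.74%) were called, and the share was 5.09% of 6425 genes between 1 and 10 CPM, 5.85% of 7403 genes between 10 and 100 CPM and 4.94% of 1821 genes over 100 CPM. Higher genes outnumbered lower genes in each of these classes, by 17 to 7, 276 to 51, 358 to 75 and 73 to 17. The 3 FosBcKO libraries did not overlap with the 3 WT libraries in 701 (96.8%) of the higher and 135 (90%) of the lower genes, against 21.8% of all tested genes. The same libraries chose the DEGs, so this contrast follows from the selection and is not a test. There were 4 tested genes with no count in any WT library and a count in each FosBcKO library, all 4 called higher, and 0 with the opposite pattern. Genes without a WT count could pass the filter on low counts only through FosBcKO, where depth was also slightly higher. These 4 are therefore only a description.

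How many genes were called depended on the test and, for the lower genes, on single libraries. The quasi-likelihood F-test of edgeR called 437 genes (2.71%), 422 higher and 15 lower, and all 437 were among the 874. DESeq2 called 868, of which 830 were shared with the 874. With each of the 6 libraries left out in turn, the number of higher genes stayed between 589 and 737 while the number of lower genes ranged from 55 to 519. Without FosBcKO replicate 1, 519 genes were lower and 686 were higher, and without FosBcKO replicate 3, 55 were lower and 720 were higher. A core of 470 genes was called in the exact test with all libraries and in each of the 6 fits with a library left out, made up of 446 (61.6%) of the higher genes and 24 (16%) of the lower genes. The number called in those fits and by the quasi-likelihood test and DESeq2 as well was 406, of which 392 were higher and 14 lower.

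**Figure D2:**
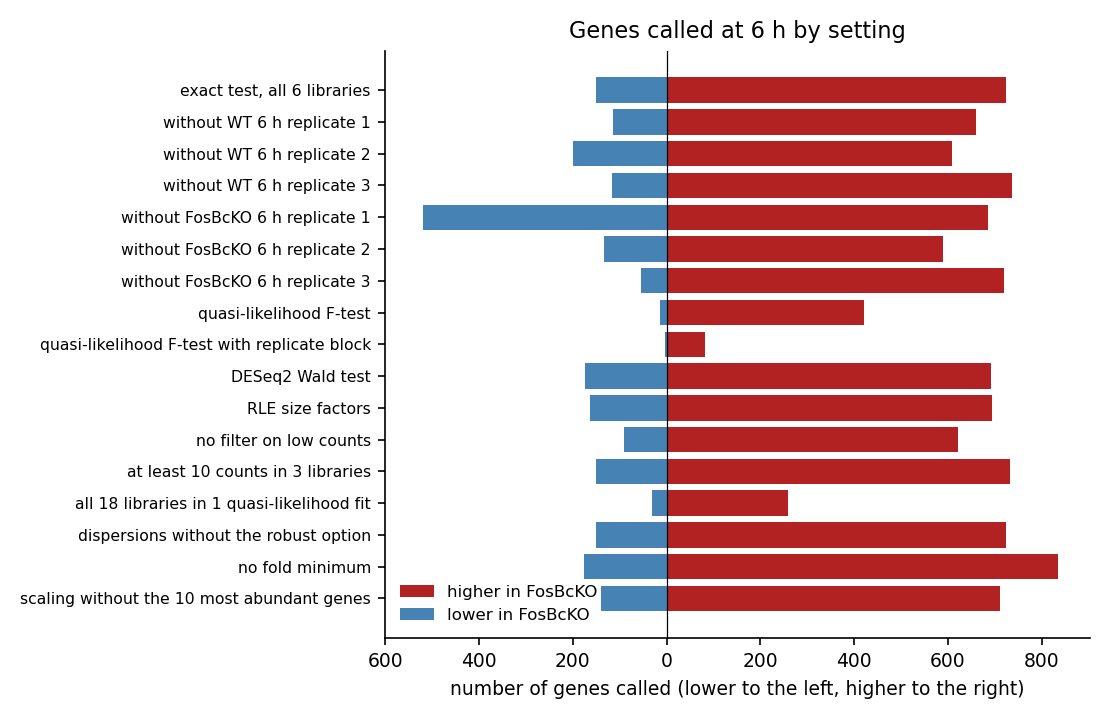
Number of genes called lower (blue, to the left of 0) and higher (red, to the right of 0) in FosBcKO at 6 h under each setting, with the exact test on all 6 libraries at the top. Higher genes outnumber lower genes in every setting drawn, and the lower genes extend from 4 with a replicate block to 519 without FosBcKO replicate 1.

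The 724 higher genes together took up 7.23%, 6.36% and 5.46% of all gene counts in the 3 FosBcKO libraries at 6 h, and 1.83%, 1.35% and 2.1% in the 3 WT libraries. Since these libraries chose the genes, the separation is a description. The other 12 libraries had no part in the choice, although the 0 h libraries of WT and FosBcKO may come from the same mice. The same genes took up 2.17%, 1.03% and 2.89% of counts in WT at 0 h and 3.55%, 2.86% and 3.23% in FosBcKO at 0 h, where the lowest FosBcKO library lay just under the highest WT library. In Egr1KO they took up 1.67%, 2.51% and 2.19% at 0 h and 2.92%, 2.85% and 2.57% at 6 h. The summed level of these genes was thus between 54607 and 72327 CPM in FosBcKO at 6 h and no higher than 35513 CPM in any of the other 15 libraries. Without the 10 most abundant of the 724 genes, the sum was 38137 to 49370 CPM in FosBcKO and 10447 to 15188 CPM in WT at 6 h. Each remaining gene was itself called higher in these libraries, so this separation too is only a description.

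The 150 lower genes had another course, with the same limit that the 6 h libraries of both genotypes chose them. They took up 0.19%, 0.15% and 0.23% of counts in WT at 0 h and 0.94%, 0.85% and 1.48% in WT at 6 h, so that every WT library at 6 h was above every WT library at 0 h. In FosBcKO the shares were 0.18%, 0.16% and 0.11% at 0 h and 0.59%, 0.34% and 0.27% at 6 h. The 6 h values were again above the 0 h values in each library but below all 3 WT values at 6 h, and the highest, 0.59%, was that of replicate 1. Egr1KO libraries held 0.17%, 0.19% and 0.13% at 0 h and 0.29%, 0.95% and 0.57% at 6 h, which overlapped with both other genotypes at 6 h.

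**Figure D3:**
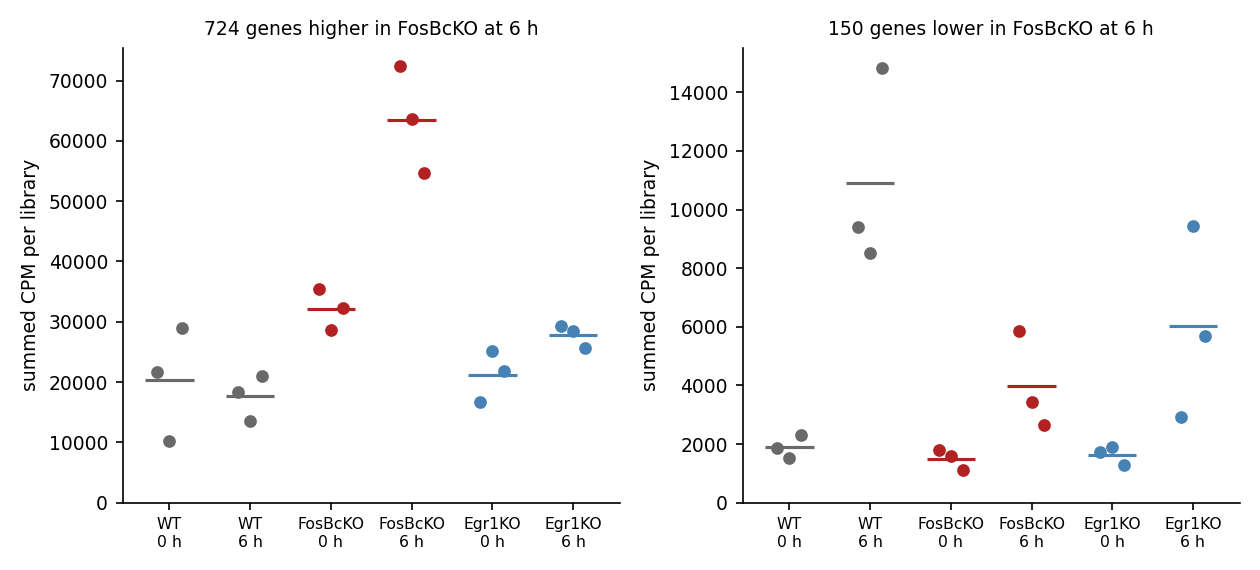
Summed level, in CPM, of the 724 genes higher (left) and the 150 genes lower (right) in FosBcKO at 6 h in each of the 18 libraries, with points for libraries and a line for the mean of each group of 3. The higher genes peak in FosBcKO at 6 h at 54607 to 72327 CPM, and the lower genes peak in WT at 6 h at 8509 to 14830 CPM.

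Whether the difference was present at 0 h was asked with the 0 h libraries, in which FosBcKO and WT were compared by the same test. These capsules came from the fellow eye, taken 6 h after surgery on the first eye. They may share mice with the 6 h libraries, so the comparisons at 0 h and 6 h may not be independent. At 0 h, 43 of 14556 tested genes (0.295%) were DEGs, 27 higher and 16 lower. Of these 43, 35 were tested at 6 h, 31 of the 35 differed in the same direction at 6 h, and 17 were DEGs at 6 h in the same direction, 14 higher and 3 lower. The 17 genes were 39.5% of the 0 h DEGs and 1.95% of the 6 h DEGs, and 0 genes were called in opposite directions. These counts varied with single libraries and with the test: the 0 h DEGs numbered 139 without FosBcKO 0 h replicate 2, 27 without replicate 1, 21 without replicate 3 and 11 by the quasi-likelihood F-test. The genes called at both times numbered 27 without WT 0 h replicate 3 and 6 by the quasi-likelihood F-test. Read pairs overlapping no annotated feature made up 10.54%, 20.89% and 8.03% in FosBcKO replicates 1, 2 and 3 at 0 h. In WT at 0 h they made up 19.76%, 18.46% and 15.17%. Any part of this share in the 0 h comparison was not tested. The 17 genes, which were selected for passing at both times, had a median absolute log2 fold change of 4.44 at 6 h and 3.86 at 0 h. Of the 17, 9 differed by more than 16-fold at 6 h. Of the 32 higher genes over 16-fold at 6 h, 19 were tested at 0 h and 8 were DEGs there, against 0.246% of all genes tested at both times.

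Most of the other 6 h DEGs leaned the same way at 0 h by a smaller amount. Of the 724 higher genes, 652 were tested at 0 h and 582 of these (89.3%) had a log2 fold change above 0, against 49% of all genes tested at both times. Their median log2 fold change at 0 h was 0.58 (quartiles 0.27 and 0.97) against -0.01 for all genes, 151 of the 652 (23.2%) were more than 2-fold higher at 0 h against 2.36% of all genes, and 106 (16.3%) had an unadjusted p under 0.05 against 5.57% (5.62% of all 14556 genes tested at 0 h). In 8 of the 652 the 0 h change was at least as large as the change at 6 h. Of the 150 lower genes, 116 were tested at 0 h, 88 (75.9%) were lower there with a median of -0.32, and 22 (19%) were more than 2-fold lower against 2.5% of all genes. The share that did not pass the 0 h filter on low counts was 22.7% of the lower genes, 9.94% of the higher genes and 12.1% of all genes tested at 6 h.

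Single 0 h libraries weighed on the size of this lean in both sets. Relative to the mean of the WT libraries at 0 h, the median log2 level of the higher genes was 0.4, -0.96 and 0.59 in the 3 WT libraries and 0.96, 0.66 and 0.82 in the 3 FosBcKO libraries, so WT replicate 2 was the lowest by far. Without that library, 509 of 673 higher genes (75.6%) were above 0 and their median was 0.3, against 49.7% and 0 for all genes, while 103 of 122 lower genes (84.4%) were below 0 with a median of -0.46. Without WT replicate 3 the median of the higher genes was 0.93. For the 86 higher genes over 8-fold at 6 h that were tested at 0 h, the spread was wider. Their levels were 0.88, -2.14 and 1.26 in WT and 2.16, 1.77 and 2.01 in FosBcKO. For the lower genes the corresponding levels were 0.14, -0.32 and 0.2 in WT and -0.08, -0.15 and -0.73 in FosBcKO, so FosBcKO replicate 3 was the lowest. Their median log2 fold change of -0.32 was -0.15 without FosBcKO replicate 3 and -0.19 without WT replicate 3.

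**Figure D4:**
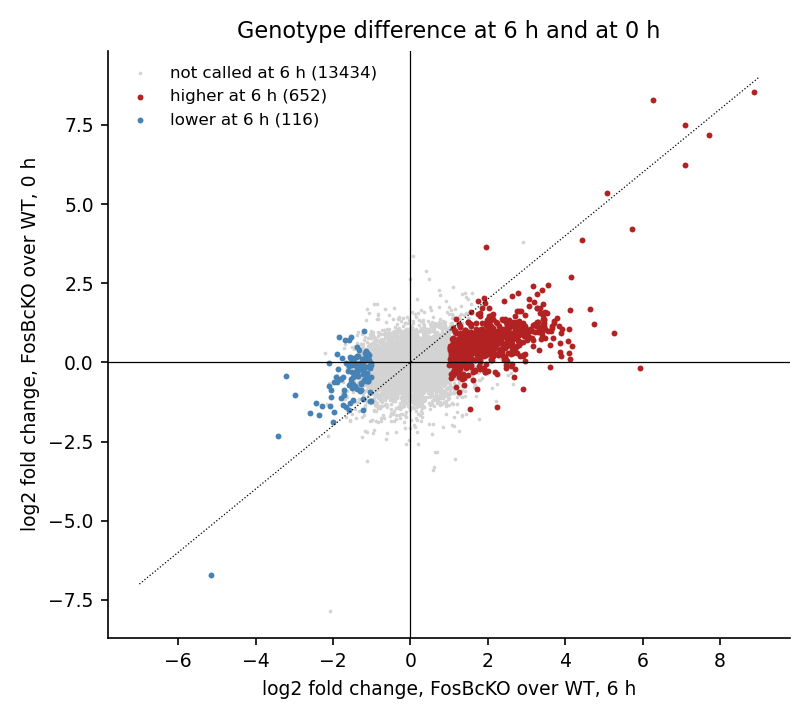
Log2 fold change of FosBcKO over WT at 0 h (vertical axis) against that at 6 h (horizontal axis), for genes tested at both times. Of the 652 genes called higher at 6 h (red) 582 lie above 0 at 0 h, most of them below the dotted line of equal change, and of the 116 called lower (blue) 88 lie below 0.

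The change in the genotype difference between 0 h and 6 h was tested directly as an interaction over all 18 libraries. By the quasi-likelihood F-test, 0 of 17469 genes passed (lowest FDR 0.089), 1171 (6.7%) had an unadjusted p under 0.05, and DESeq2 called 32. The quasi-likelihood count was 24 without WT 0 h replicate 2, 2 without FosBcKO 0 h replicate 2, and 404 without a filter on low counts. The main fit treated 0 h and 6 h libraries as independent, although they may share mice. With a replicate block within genotype the count was 0, and whether replicate numbers pair 0 h with 6 h libraries was not tested. Of the 32 genes called by DESeq2, 29 had a larger FosBcKO minus WT difference at 6 h than at 0 h. Among the 32, 25 belonged to the 724 higher genes, which were 4.48% of the genes tested at 6 h. In the fit, the higher genes had a median interaction of 1.27 on the log2 scale (median standard error 0.81) and the lower genes -1.28 (median standard error 0.86). The overlap of the DESeq2 calls with the higher genes, their direction and these medians all share the 6 h libraries that chose the genes, and are not a test. By the quasi-likelihood F-test on all 18 libraries with the filter, no single DEG at 6 h was thus shown to differ between the times, and the calls of the other settings were not shared by it.

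The 2 higher and 2 lower genes shown in full had the most extreme fold changes among DEGs with an average log2 CPM of at least 1 and no overlap between the groups. The 6 h libraries chose them, and each passed the filter on low counts only through the genotype where it was high. Their fold changes, FDRs and ratios at 6 h are therefore a description. Standard errors came from the quasi-likelihood fit, whose F-test gave larger FDRs at 6 h than the exact test. These were 0.000479 for ENSMUSG00000107092 and for ENSMUSG00000068396, 0.0127 for ENSMUSG00000101939 and 0.00627 for ENSMUSG00000053420. ENSMUSG00000107092 had 270, 454 and 414 counts in the FosBcKO libraries at 6 h and 1, 1 and 0 in the WT libraries. Almost all of its counts were thus in FosBcKO, with a log2 fold change of 8.89 ± 0.56 (SE, FDR 6.97e-40, edgeR exact test). Without WT replicate 3, the WT library with no count, it was 8.29. The ratio of summed counts per depth was 506, with a 95% interval of 140 to 4190 that covers counting error only. The groups were also far apart at 0 h, where FosBcKO had 252, 213 and 386 counts and WT 1, 0 and 1, with a log2 fold change of 8.53 ± 0.51 (FDR 5.19e-41). Its interaction was 0.27 ± 1.57 on the log2 scale, and Egr1KO libraries at 6 h had 0, 4 and 0 counts.

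ENSMUSG00000068396 was at 33.5, 34.7 and 57.7 CPM in FosBcKO and at 0.377, 0.302 and 0.286 CPM in WT at 6 h. The log2 fold change was 7.1 ± 0.39 (FDR 5.79e-42). At 0 h the FosBcKO libraries held 69.1, 77.9 and 79.5 CPM and the WT libraries 0.287, 0.444 and 0.487 CPM, a log2 fold change of 7.49 ± 0.22 (FDR 6.81e-117). FosBcKO libraries were far above all others at both times, and the Egr1KO libraries did not exceed 1.06 CPM.

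ENSMUSG00000101939 was the mirror image, at 56.5, 26.4 and 62.5 CPM in WT and 3.35, 0.0864 and 0.43 CPM in FosBcKO at 6 h, a log2 fold change of -5.16 ± 0.8 (FDR 3.23e-06). Egr1KO libraries resembled WT, with 69.6, 55.8 and 46 CPM at 6 h. At 0 h the log2 fold change was -6.7 ± 0.35 (FDR 1.36e-47), with 31, 23.5 and 29.1 CPM in WT and 0.357, 0.104 and 0.291 CPM in FosBcKO. FosBcKO replicate 1 at 6 h held 39 of the 45 FosBcKO counts at that time, and without it the 6 h log2 fold change was -7.3.

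ENSMUSG00000053420 differed from the other 3 in its course. In WT it was at 0.67, 0.356 and 0.681 CPM at 0 h and at 7.45, 7.26 and 15.7 CPM at 6 h. All 3 WT libraries at 6 h were thus above all 3 at 0 h. In FosBcKO it was at 0.268, 0.104 and 0 CPM at 0 h and at 0.687, 0.259 and 0.086 CPM at 6 h, where the ranges overlapped. The log2 fold change at 6 h was -4.71 ± 0.62 (FDR 4.14e-11). With a replicate block in the quasi-likelihood fit the call was lost (FDR 0.0674). FosBcKO replicate 1 held 8 of the 12 FosBcKO counts at 6 h, and without it the log2 fold change was -5.57. It was too low at 0 h to be tested there, and its interaction of -2.71 ± 1.61 did not pass (FDR 0.798, quasi-likelihood F-test). Egr1KO libraries at 6 h lay at 0.891, 4.4 and 0.753 CPM, between the ranges of WT and FosBcKO.

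**Figure D5:**
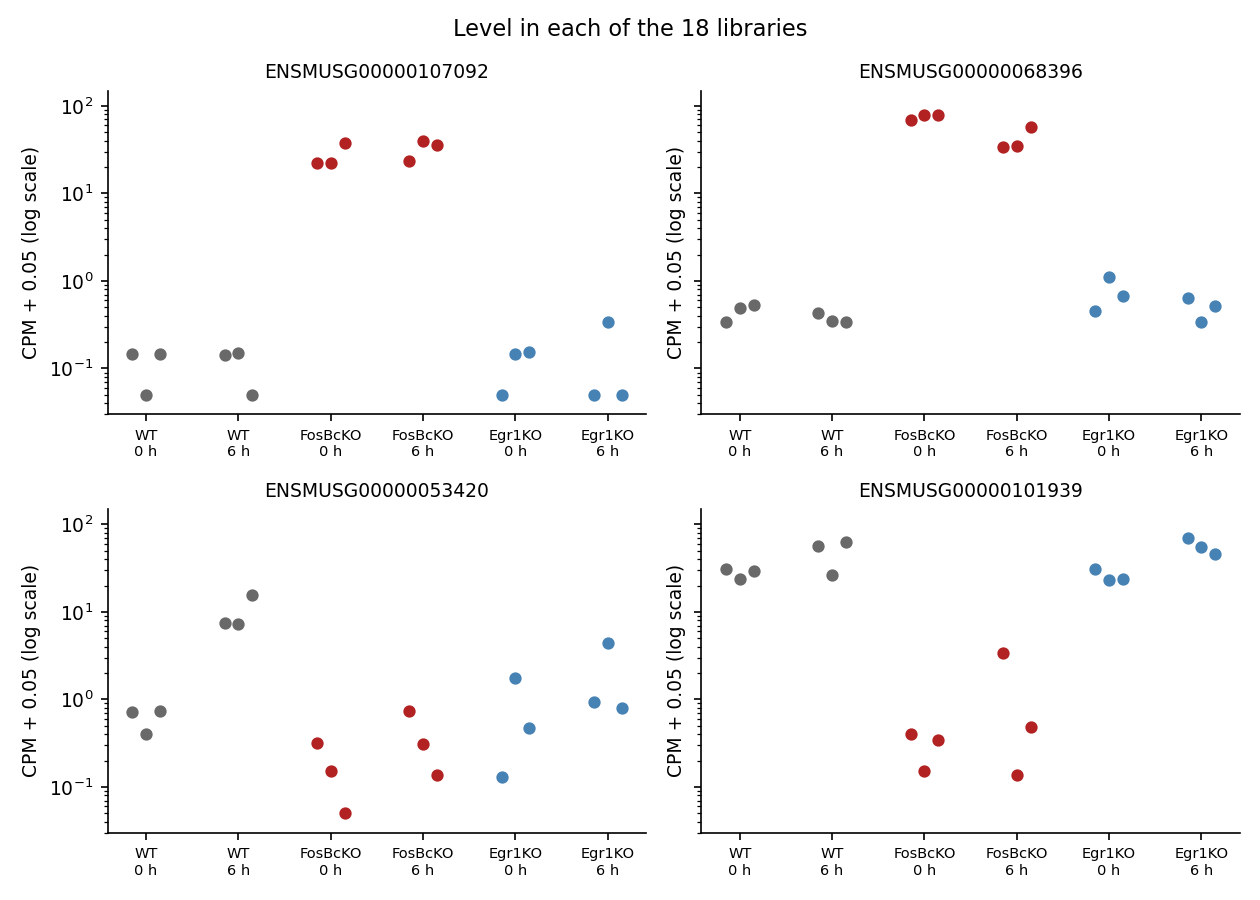
Level of the 4 genes shown in full, as CPM + 0.05 on a log scale, in each of the 18 libraries by genotype and time. Top, ENSMUSG00000107092 and ENSMUSG00000068396 are high in FosBcKO alone at both times. Bottom, ENSMUSG00000053420 reaches 7.26 to 15.7 CPM in WT at 6 h, and ENSMUSG00000101939 is low in FosBcKO at both times.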

How the data were processed

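RNA-seq libraries were made with a stranded, ribosomal RNA depleted kit for low input. The authors aligned read pairs with HISAT2 and ran HTSeq in union mode on an Ensembl annotation to count pairs per gene. The deposited files hold these counts, not normalized. The methods name GRCm38 and the labels GRCm39, so no coordinates are given. The lines for unassigned reads were left out of library sizes. Samples were grouped by title.

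Counts were analysed in R 4.3.3 with edgeR 4.0.16: filterByExpr, TMM scaling, robust dispersions and the exact test named in the methods, with FDR of at most 0.05 and over 2-fold change, in the 6 libraries of each contrast. Standard errors came from the quasi-likelihood fit, as the absolute log2 fold change divided by the square root of its F statistic. The interaction was a quasi-likelihood F-test over 18 libraries. CPM are counts per 1000000 gene counts (9920318 to 11647796 per library at 6 h), without TMM factors. Principal components used log2 CPM with a prior count of 2. Alternatives were the quasi-likelihood test, DESeq2 1.42.0, RLE scaling, other filters, no fold minimum, a replicate block and leaving out each library. The 6 h fits by the exact test, the quasi-likelihood test and DESeq2, and the interaction fit, were tested on simulated data with 200 changed genes. The other settings were not. The genes shown in full were the 2 highest and 2 lowest log2 fold changes among DEGs with average log2 CPM of at least 1 and no overlap between groups. Parts of the naming rule that need gene names were not used. The comparison and its lists were chosen with earlier results of these data known.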

Additional observations from a re-analysis of the deposited data

How the results depend on the processing

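Of the alternatives, none reversed a direction. The quasi-likelihood F-test gave 437 DEGs at 6 h (422 higher, 15 lower), 11 at 0 h and 6 at both. All 18 libraries in 1 quasi-likelihood fit gave 289 (258 higher, 31 lower), 6 at 0 h and 5 at both. Without a filter on low counts, 90 genes were lower at 6 h, 24 were DEGs at 0 h and 404 passed the interaction, which also passed in 32 genes by DESeq2. RLE scaling gave 859 at 6 h, 10 counts in 3 libraries gave 882, no fold minimum gave 1011, and scaling without the 10 most abundant genes, chosen after seeing the data, gave 852. The cause of these shifts was not tested.

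Leaving out each library in turn gave 722 to 1205 DEGs at 6 h (589 to 737 higher, 55 to 519 lower), 21 to 139 at 0 h, 12 to 27 at both and 0 to 24 in the interaction. The 0 h extremes were 139 without FosBcKO replicate 2 and 21 without replicate 3 (27 without replicate 1), the 27 at both came without WT 0 h replicate 3, and the interaction passed in 24 genes without WT 0 h replicate 2 and 2 without FosBcKO 0 h replicate 2. The median 0 h log2 fold change of the higher genes was 0.3 to 0.93 and that of the lower genes -0.46 to -0.15, alternatives chosen after seeing the data.

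Replicate numbers are shared in the labels, but the deviations of same-numbered WT and FosBcKO libraries at 6 h correlated at -0.131, 0.16 and -0.295, so the numbers were not taken to pair libraries. The extremes were between differently numbered libraries, 0.409 for WT replicate 3 with FosBcKO replicate 1 and -0.35 for WT replicate 2 with FosBcKO replicate 1. What such libraries share was not tested. The quasi-likelihood F-test with a replicate block gave 86 DEGs (82 higher, 4 lower), 14 at 0 h and 6 at both, a 0 h median of 0.78 for the higher genes, and an FDR of 0.0674 for ENSMUSG00000053420. Scaling without crystallin and mitochondrial genes and counts per gene list were not run, since they need gene names.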
